A study of Mus musculus with 50 samples.

Results

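The 10 genes described here encode ubiquitin ligases linked to muscle wasting or enriched in striated muscle. They were chosen by gene symbol (Trim63, Fbxo32, Fbxo30, Fbxo31, Fbxo40, Fbxo21, Trim54, Trim55, Asb2 and Nedd4) out of 23880 genes in the tables. The rule used no measured value, but the choice was made with earlier results of these data known. All 10 matched 1 row each, and all 10 were among the 12586 genes that passed the filter on low counts. They were followed in the gastrocnemius, a calf muscle made mostly of fast fibres, of 50 male wild type mice of the inbred strain C57BL/6JRj. The 4 younger ages (8, 18, 22 and 24 months) had 8 mice each and the oldest ones (26 and 28 months) had 9, with 1 stranded mRNA library per mouse. All mice were singly caged and received the purified diet AIN93M. The mice aged 22 to 28 months started that diet at 18 to 19 months. Those aged 8 and 18 months had it for at least 2 months before their endpoint. Comparisons among the ages of 22 to 28 months thus share the age at which the diet began, but not the time on it. Those against 8 months do not share that age of start. Animals with overt illness or tumors had been left out, so that the oldest groups are survivors without visible disease.

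Ubiquitin is passed from an activating enzyme (E1) to a conjugating enzyme (E2), and a ligase (E3) then brings the loaded E2 to the protein that is to be tagged. Many tagged proteins are degraded by the proteasome, a main route by which a shrinking muscle fibre removes its contractile proteins. Trim63 (also called MuRF1) and Fbxo32 (atrogin-1) are the muscle ligases best known to rise in fasting, denervation, unloading and glucocorticoid excess, and both are targets of FoxO transcription factors. Trim54 and Trim55 (MuRF3 and MuRF2) are RING ligases of the same family as Trim63 and sit on the sarcomere and microtubules. Fbxo30, Fbxo31, Fbxo40 and Fbxo21 encode F-box proteins like Fbxo32, the substrate-binding subunits of cullin-1 ligases. Asb2 is a substrate-binding subunit of cullin-5 ligases that targets filamins, and Nedd4 is a HECT ligase.

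In the mouse genome (GRCm38, GENCODE release M21) the genes lie on 9 chromosomes. Trim63 lies on chromosome 4 from 134315120 to 134329629 (+), Fbxo32 on chromosome 15 from 58175879 to 58214932 (-), Fbxo30 on chromosome 10 from 11281330 to 11298052 (+) and Fbxo31 on chromosome 8 from 121549440 to 121578806 (-). Fbxo40 is on chromosome 16 from 36963460 to 36990467 (-), Fbxo21 on chromosome 5 from 117976730 to 118010201 (+) and Trim54 on chromosome 5 from 31116712 to 31137630 (+). Trim55 is on chromosome 3 from 19644474 to 19692421 (+), Asb2 on chromosome 12 from 103321142 to 103356001 (-) and Nedd4 on chromosome 9 from 72662346 to 72749852 (+). None overlaps another protein-coding gene on its own strand, and Fbxo31 overlaps the coding gene Gm20388 on the opposite strand, which the stranded assignment separates.

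RefSeq (GRCm38.p6) gave 11 windows of the 250 bases before a transcription start for 8 of the 10 genes, with none for Fbxo32 and Trim55. They were searched on both strands for GTAAACA, the letters of the FoxO recognition element, and for CANNTG, the E-box of myogenic and clock factors. The windows of Trim63, Fbxo31 and Fbxo30 are shown because these genes rose with age, and 1 of the 2 windows of Fbxo40 because that gene did not pass the test. Nedd4 also rose with age, and its 2 windows are not shown. Capitals mark the matches, and every window reads toward the gene, 5′ to 3′.
Trim63, chr4:134314870-134315119 (+): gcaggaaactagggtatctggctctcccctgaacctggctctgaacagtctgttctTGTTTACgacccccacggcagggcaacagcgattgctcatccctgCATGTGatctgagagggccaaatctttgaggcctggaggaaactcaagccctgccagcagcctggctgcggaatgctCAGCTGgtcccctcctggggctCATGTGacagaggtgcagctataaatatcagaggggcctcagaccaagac
Fbxo31, chr8:121578807-121579056 (-): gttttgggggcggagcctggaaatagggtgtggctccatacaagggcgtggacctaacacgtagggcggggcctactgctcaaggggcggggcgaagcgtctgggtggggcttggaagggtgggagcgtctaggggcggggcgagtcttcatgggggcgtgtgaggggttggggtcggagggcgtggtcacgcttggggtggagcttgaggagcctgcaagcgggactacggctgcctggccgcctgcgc
Fbxo30, chr10:11281337-11281586 (+): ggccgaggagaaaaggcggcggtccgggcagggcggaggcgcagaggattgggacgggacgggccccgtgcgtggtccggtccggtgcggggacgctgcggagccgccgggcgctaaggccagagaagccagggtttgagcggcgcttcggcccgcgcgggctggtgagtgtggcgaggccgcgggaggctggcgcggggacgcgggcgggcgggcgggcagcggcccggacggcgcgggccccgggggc
Fbxo40, chr16:36990468-36990717 (-): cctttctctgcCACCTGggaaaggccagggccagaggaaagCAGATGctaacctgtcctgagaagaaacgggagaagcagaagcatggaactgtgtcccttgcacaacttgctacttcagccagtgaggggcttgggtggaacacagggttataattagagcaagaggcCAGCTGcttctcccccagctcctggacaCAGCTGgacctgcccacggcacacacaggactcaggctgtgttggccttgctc
GTAAACA occurred in 1 window of the 11, that of Trim63, where it begins 194 bases before the start on the reverse strand and reads as its complement above. Of 32851 promoters of this length, 3.17% hold it. CANNTG occurred in 6 of the 11 windows and in 66.2% of all promoters. Trim63 has 3 such matches, the window of Fbxo40 shown has 4 and its other window has 2. Of the 2 windows of Nedd4, 1 has 4 matches and the other has 0. The windows of Fbxo31, Fbxo30 and Fbxo21 hold neither motif. A match is a run of letters and not a measured site.

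Levels are given as TPM, transcripts scaled to library size and transcript length, so that genes can be compared, and fold changes come from the counts. At 8 months the mean level fell from Asb2 (537 ± 64.6 TPM, SD, n = 8) through Trim54 (394 ± 19.1), Nedd4 (283 ± 61.2) and Fbxo40 (255 ± 47.7) to Fbxo32 (149 ± 37.1) and Trim63 (146 ± 54.4). Fbxo31 (80.9 ± 10.9 TPM) and Trim55 (67.4 ± 7.83) followed, and Fbxo21 (10.5 ± 2.48) and Fbxo30 (9.82 ± 1.37) were lowest. The neighbours Nedd4 and Fbxo40, Fbxo32 and Trim63, and Fbxo21 and Fbxo30 lay within their spread of each other. At 28 months Trim63 had the highest mean of the 10 genes, 669 ± 589 TPM (SD, n = 9), followed by Fbxo32 with 497 ± 476. Without replicate 2 of that age the mean of Trim63 was 509.5 ± 364 (SD, n = 8) and still the highest, while that of Fbxo32 was 356 ± 234 and lay below Asb2 (485 ± 107), Nedd4 (434 ± 68.1) and Trim54 (413 ± 36.1). Counts per mouse ranged from 252 to 535 for Fbxo21 and from 240 to 1992 for Fbxo30, the genes with the fewest counts. For Fbxo32 they reached 101344. Relative counting error was thus largest for Fbxo21 and Fbxo30, and its part in their spread between mice was not tested.

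Total counts per mouse were between 13607229 and 21267375 with a median of 16521368. Defining genes of skeletal muscle were abundant in every library (mean of 41416 TPM for Acta1 and 19227 for Myh4, the fast IIB myosin), and no lymphocyte marker passed the filter. Of the heart genes, Nppa averaged 0.0226 TPM, Nppb 0.0117, Tnni3 0.298 and Tnnt2 0.177, while Myh6 averaged 3 TPM and passed the filter. The library labelled replicate 2 of 28 months stood apart. Its 8 skeletal fibre markers summed to 109969 TPM against 141732 to 177609 in the other 8 mice of that age. Its macrophage markers (279 TPM against 113 to 204), adipocyte markers (704 against 306 to 471) and endothelial markers (179 against 119 to 139) lay above those mice. Its total of 17443783 counts was the highest of that age. Because this mouse was the highest of its age in Trim63, Fbxo32, Fbxo30, Fbxo31 and Trim54 and the lowest in Trim55 and Asb2, the fold changes of the called ligases, the order of the mean levels, the spread and each list count that changed are given with and without it. All other values at 28 months include it.

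Calls were made at FDR below 0.01 with the quasi-likelihood test of edgeR. Against 8 months, no ligase was called at 18 months (0.0715% of all genes were, 0.0397% upward and 0.0318% downward), at 22 months (0.0397%, all upward) or at 24 months (0.612%, 0.318% upward and 0.294% downward). At 26 months 4 of the 10 were higher than at 8 months (Trim63, Fbxo32, Fbxo31 and Nedd4) and none was lower, where 18.4% of all genes passed, 9.84% upward and 8.54% downward. At 28 months 5 were higher, Fbxo30 having joined them, and Trim55 was lower, where 39.6% of all genes passed, 21% upward and 18.7% downward. The median log2 fold change of the 10 genes was 0.25 at 26 months and 0.42 at 28 months, beside -0.00 and 0.01 over all genes tested. Between 28 and 22 months, which share the start of the diet but not the time on it, 6 passed in the same directions as against 8 months (27.7% of all genes, 16.2% upward and 11.5% downward). When 28 months was compared with 22 months in a fit on these 2 ages alone, 2 passed, Trim63 and Nedd4. Over the 6 ages together 6 passed (35.4% of all genes). Comparisons against 8 months share their control mice and do not support each other independently. In this bulk tissue, fewer cells of a type and less RNA per cell cannot be told apart.

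**Figure D1:**
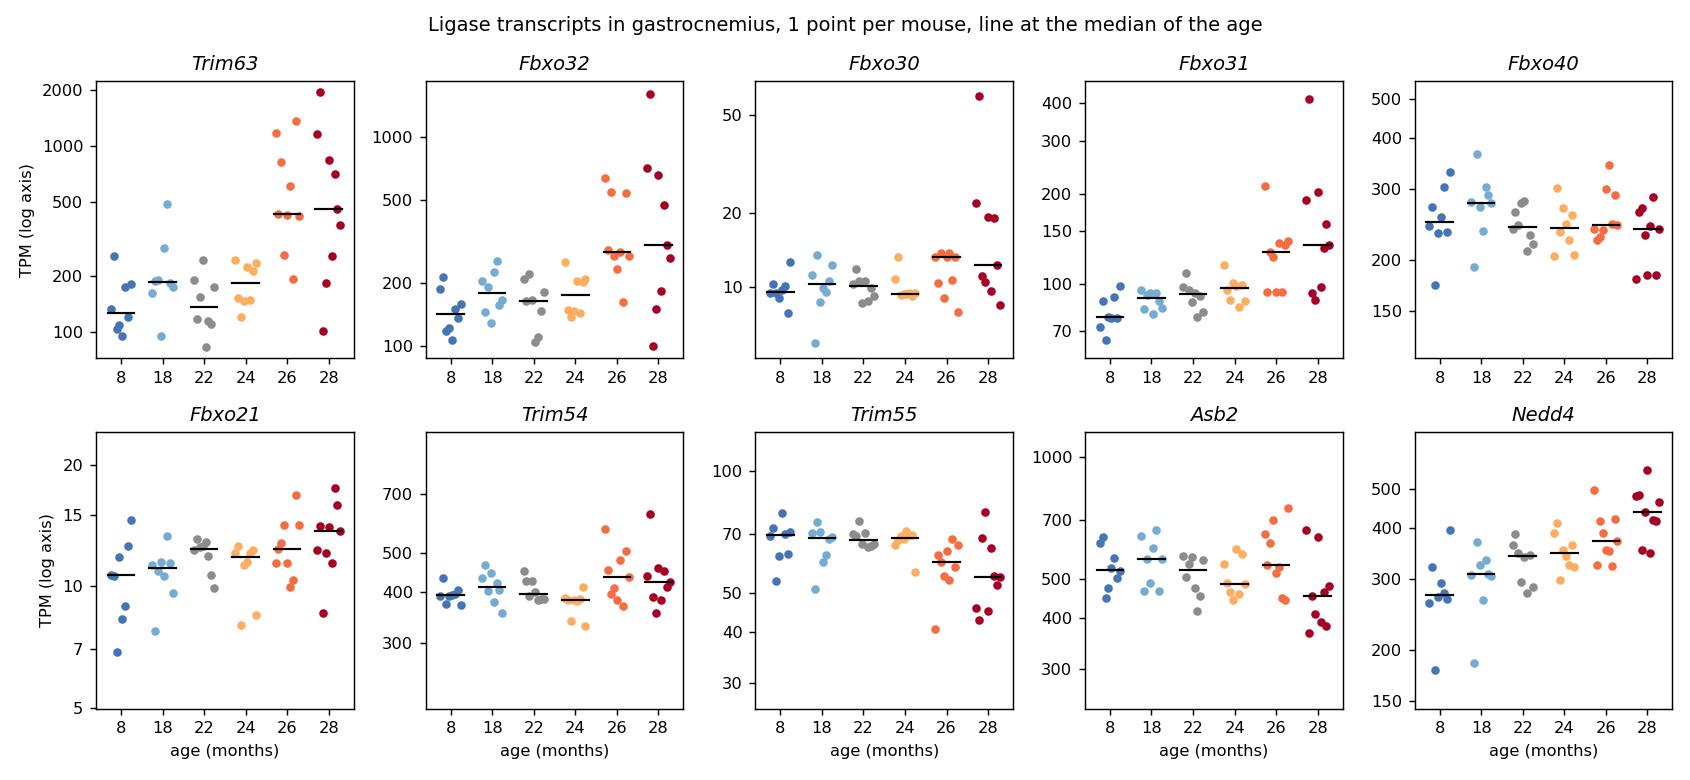
TPM of the 10 ligase genes in each mouse (log vertical axis) by age in months, 1 point per mouse with a line at the median of 8 or 9 mice. Trim63 and Fbxo32 spread upward at 26 and 28 months, while in TPM all mice of 28 months lie inside the range of the youngest mice in Fbxo40.

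Between consecutive ages no ligase was called. This held between 22 and 18 months, where 0.00795% of all genes were called, and between 24 and 22, 26 and 24, and 28 and 26 months, where 0% were. At an unadjusted p under 0.05 there were 0, 5 and 3 ligases in these last 3 steps, and 478, 2202 and 1609 of all genes. The step from 24 to 26 months came closest for Trim63, with a log2 fold change of 1.79 (standard error 0.38, edgeR's quasi-likelihood test, FDR = 0.0502), and DESeq2 called it. For Fbxo32 that step was 1.01 (standard error 0.31, FDR = 0.0894). Between 26 and 28 months Trim63 differed by -0.03 (standard error 0.36), and Fbxo30 by 0.63 (standard error 0.19, FDR = 0.234).

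Trim63, the RING ligase of thick filament proteins, ranged from 94.9 to 256 TPM at 8 months (median 127), from 94.6 to 489 at 18 months (185), from 82.8 to 242 at 22 months (135) and from 120.4 to 242 at 24 months (182). At 26 months it ranged from 193 to 1361 TPM with a median of 429, and at 28 months from 101 to 1949 with a median of 456. Above the highest 8 months-old mouse lay 2 mice at 18 months, none at 22 or 24 months, 8 of 9 at 26 months and 6 of 9 at 28 months. The oldest group thus overlapped the youngest through 3 mice, replicates 3, 4 and 6, at 101, 183 and 255 TPM. The fitted log2 fold change against 8 months was 2.13 at 26 months (standard error 0.39, FDR = 9.42e-05) and 2.10 at 28 months (standard error 0.39, edgeR's quasi-likelihood test, FDR = 2.21e-05), or 4.27-fold. Among all 12586 genes, 60 had a larger log2 fold change between 28 and 8 months. Without replicate 2 of 28 months the value was 1.77 (standard error 0.37, FDR = 0.000139).

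Fbxo32, the F-box ligase that targets the myogenic factor MyoD and the translation factor eIF3f, ranged from 106 to 214 TPM at 8 months (median 142). Its medians were 178, 164 and 175 TPM at 18, 22 and 24 months. At 26 months it ranged from 162 to 642 TPM (median 281), and at 28 months from 100.1 to 1624 (median 303). Of the 9 mice, 8 at 26 months and 6 at 28 months exceeded all 8 months-old mice, and replicate 3 of 28 months lay below all of them. The log2 fold change against 8 months was 1.28 at 26 months (standard error 0.31, FDR = 0.00199) and 1.62 at 28 months (standard error 0.32, edgeR's quasi-likelihood test, FDR = 5.04e-05). It was 1.21 without replicate 2 of 28 months (standard error 0.28, FDR = 0.00048). Larger log2 fold changes between 28 and 8 months were found in 121 genes.

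Of the other F-box genes, Fbxo31, known for the turnover of cyclin D1 after DNA damage, changed the most and in the most mice. It ranged from 65.3 to 99 TPM at 8 months (median 77.6), from 94.1 to 212 at 26 months (128) and from 88.8 to 412 at 28 months (135), with 6 of 9 mice above the 8 months range at each of the old ages. Its log2 fold change at 28 months was 0.94 (standard error 0.16, FDR = 1.01e-05) and 0.71 without replicate 2. At 26 months it was 0.66 (edgeR's quasi-likelihood test, FDR = 0.00208), and without replicate 1 of that age it was 0.52 and did not pass (FDR = 0.0112).

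Fbxo30 (MUSA1), a ligase gene repressed by BMP signalling, ranged from 7.89 to 12.7 TPM at 8 months (median 9.59) and from 8.43 to 59.5 at 28 months (median 12.3). The 28 months group overlapped the youngest in 5 of its 9 mice, and its highest value stood at 59.5 TPM with the next at 22. The log2 fold change was 0.86 (standard error 0.20, edgeR's quasi-likelihood test, FDR = 0.000373). Without replicate 2 of 28 months it fell to 0.48 (standard error 0.14, FDR = 0.00397), and against 22 months from 0.87 to 0.48. At 26 months it was 0.23 (FDR = 0.367).

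Fbxo40, a muscle-specific F-box gene whose product targets Irs1, lay between 173 and 329.7 TPM at 8 months (median 249) and between 179.7 and 286 at 28 months (median 238). All 28 months-old mice were inside the range of the youngest, and the log2 fold change of -0.23 did not pass FDR 0.01 (standard error 0.08, FDR = 0.0173). It did pass with upper-quartile scaling (-0.28, FDR = 0.005) and when replicate 3 of 8 months, replicate 3 of 28 months or replicate 7 of 28 months was left out. Fbxo21 (SMART), which was described in denervated muscle, lay between 6.87 and 14.6 TPM at 8 months (median 10.6) and between 8.59 and 17.5 at 28 months (median 13.7). Its log2 fold change of 0.28 did not pass (standard error 0.11, edgeR's quasi-likelihood test, FDR = 0.0257), except without replicate 3 of 28 months (0.34, FDR = 0.00622).

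The relatives of Trim63 differed from it. Trim55, the MuRF2 gene, ranged from 53.6 to 78.9 TPM at 8 months (median 69.6) and from 43 to 79.4 at 28 months (median 54.7). Although 4 of 9 mice lay below the youngest group, 1 mouse lay above it. Its log2 fold change was -0.34 (standard error 0.09, edgeR's quasi-likelihood test, FDR = 0.00169), and -0.28 without replicate 2 of 28 months (FDR = 0.00523). In limma it was -0.27 on log2(TPM + 1) and on log2(TPM + 0.1) and did not pass (FDR = 0.0149 and 0.0156), nor did it pass in a fit on the 2 ages alone (FDR = 0.0281). Trim54, the MuRF3 gene, had a log2 fold change of 0.07 at 28 months (standard error 0.08, FDR = 0.515). In TPM its levels had the smallest relative spread of the 10 genes at 8 months, with a coefficient of variation of 4.83%, and 17.7% at 28 months. This rank did not hold in CPM, where Trim54 had an SD of 28.5 at a mean of 328 and Fbxo31 one of 10.6 at 158.

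Among the other ligase classes, Nedd4 had the lowest FDR of the 10 genes between 28 and 8 months. Its median was 274 TPM at 8 months, 308 at 18 months, 341 at 22 months, 348 at 24 months, 372 at 26 months and 438 at 28 months, and the range moved from 178 to 396 TPM at 8 months to 348 to 557 at 28 months. Of the 9 mice of 28 months, 7 exceeded all 8 months-old mice. The log2 fold change was 0.43 at 26 months (FDR = 0.000406) and 0.56 at 28 months (standard error 0.09, edgeR's quasi-likelihood test, FDR = 2.72e-06), and it was 0.56 also without replicate 2. Asb2, whose product brings filamins to degradation, ranged from 450.2 to 637 TPM at 8 months (median 528), from 443 to 749.6 at 26 months (541) and from 369 to 663 at 28 months (454). Below all 8 months-old mice lay 4 of 9 mice of 28 months. The log2 fold change of -0.25 did not pass (standard error 0.12, FDR = 0.0626), except without replicate 1 of 28 months (-0.34, FDR = 0.00991).

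**Figure D2:**
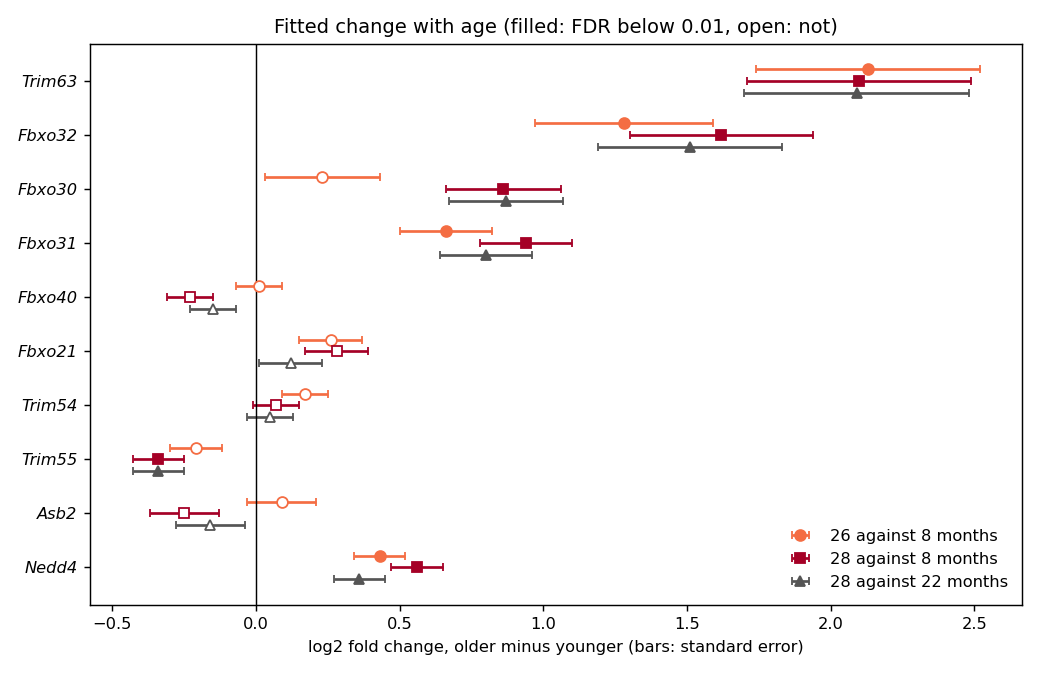
Fitted log2 fold changes of the 10 genes (older minus younger, bars are the standard error) for 26 against 8, 28 against 8 and 28 against 22 months, with filled symbols where FDR was below 0.01. Trim63 lies near 2.1 in all 3 comparisons and Trim55 lies below 0.

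The oldest mice differed from each other in how many of the 5 genes called higher at 28 months lay above the youngest group. These 5 genes were picked by their call between 28 and 8 months. The counts of mice above the 8 months range at 28 months, also beside 18 to 24 months, are thus partly set by that choice. No share over all genes is given here. At 28 months, 4 mice (replicates 1, 2, 5 and 7) exceeded the highest 8 months-old mouse in 5 of 5, replicates 8 and 9 in 4, replicate 4 in 1, and replicates 3 and 6 in 0. At 26 months, 3 mice did so in 5 of 5, 1 in 4, 3 in 3, 1 in 2 and 1 (replicate 7) in 0. Of the 24 mice aged 18 to 24 months, 9 exceeded it in 1 or 2 genes and 15 in none. The mean distance of a mouse from the median of its age, on the log2 TPM scale, was larger at 28 than at 8 months by 0.68 for Trim63, 0.72 for Fbxo32, 0.50 for Fbxo30 and 0.36 for Fbxo31, and it differed by -0.03 for Nedd4. Two-sided exact permutation tests of this distance gave p = 0.029 for Trim63, 0.0114 for Fbxo32, 0.0167 for Fbxo30, 0.0266 for Fbxo31 and 0.713 for Nedd4. The first 4 each stood at 0.0726 after adjustment over the 10 tests of spread made, and none passed 0.05. Without replicate 2 of 28 months the differences were 0.55 for Trim63, 0.54 for Fbxo32, 0.30 for Fbxo30 and 0.22 for Fbxo31 (exact permutation tests, adjusted p = 0.107 for each).

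**Figure D3:**
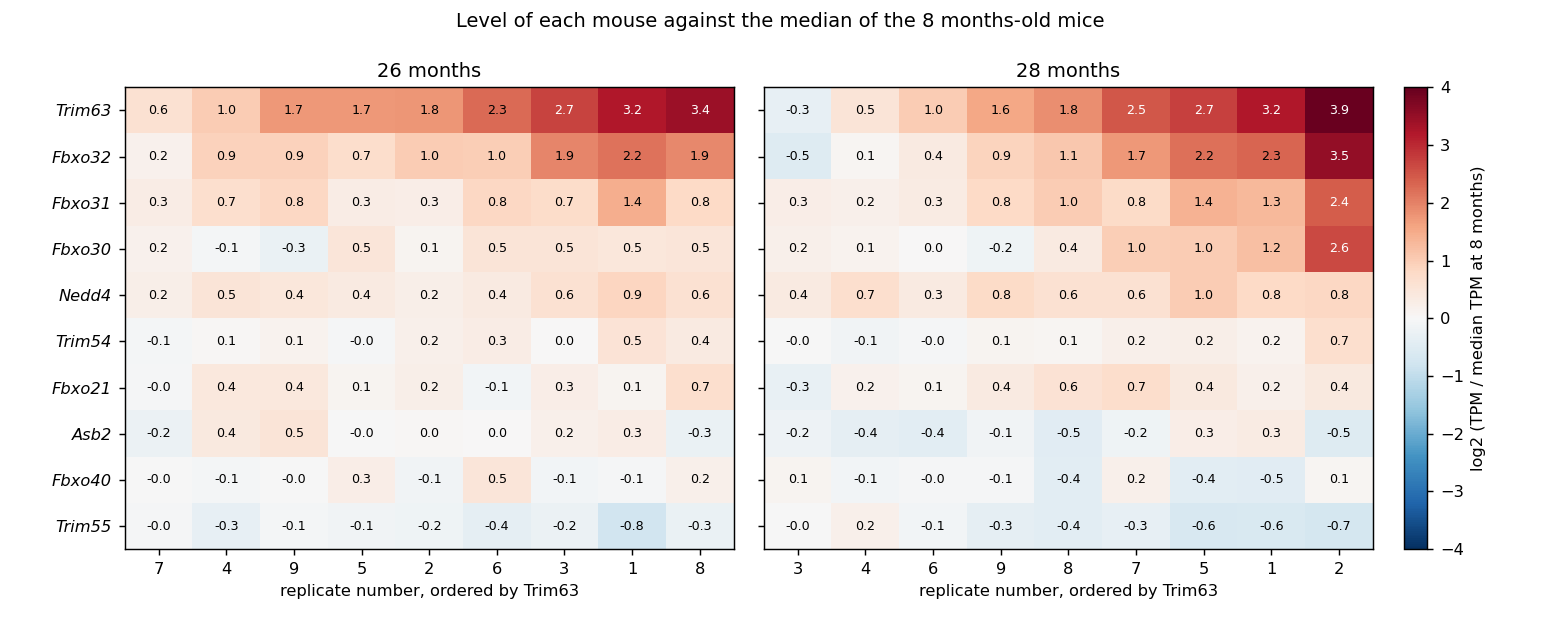
Level of each ligase gene in each mouse of 26 and 28 months as log2 of its TPM over the median TPM at 8 months, with mice (replicate numbers) ordered by Trim63 from left to right. In the 28 months panel Fbxo32 keeps the order of Trim63 in all 9 mice, and replicates 3, 4 and 6 stay near the youngest group.

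Trim63 and Fbxo32 varied together among mice of the same age. After the mean of each age was taken out, Pearson's r of log2(TPM + 1) was 0.926 and Spearman's rho 0.908 over the 50 mice (two-sided permutation test of mice within ages, p = 1e-05 for both coefficients, which is the lowest value possible with 100000 permutations, adjusted p = 0.000112 and 0.000225 over 45 pairs of genes). With the 2 most distant mice removed, r was 0.916. The relation held within each age by r, from 0.719 at 22 months to 0.989 at 28 months (exact permutation tests, adjusted p = 0.047 and 3.31e-05 over the 6 ages). By rho it did not pass at 18 months (0.667, exact permutation test, adjusted p = 0.0831), and it was 1 at 28 months, where both genes put the 9 mice in one order.

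Over the 45 pairs, 25 had an adjusted p below 0.05 by r, 21 positive and 4 negative. All 4 negative pairs held Trim55, with Trim63 (r = -0.591, rho = -0.452), Fbxo32 (-0.594, -0.396), Fbxo31 (-0.578, -0.240) and Trim54 (-0.531, -0.315). By rho, the pairs of Trim55 with Fbxo31 and Trim54 did not pass (permutation test, adjusted p = 0.21 and 0.0749). Among the positive pairs, Fbxo32 with Fbxo31 had r = 0.818 and rho = 0.598 (permutation test, adjusted p = 0.000112 and 0.00162), and r = 0.704 without the 2 farthest mice. Of the 6 ages, this pair passed at 28 months (r = 0.943, exact permutation test, adjusted p = 0.000992) and was 0.0754 at 18 months. Fbxo31 with Nedd4 had r = 0.576 and rho = 0.752, and Fbxo21 with Nedd4 had r = 0.61 and rho = 0.481 (permutation test, adjusted p = 0.000375 for r). The pair of Fbxo30 with Trim54 fell from r = 0.485 to 0.154 without replicate 2 of 28 months. Some pairs moved with the scale. On the CPM scale, which normalizes counts by library size with TMM factors, 20 pairs passed (15 positive and 5 negative), Trim63 with Fbxo32 again at 0.926, while Fbxo40 with Nedd4 moved from 0.422 to -0.0215.

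**Figure D4:**
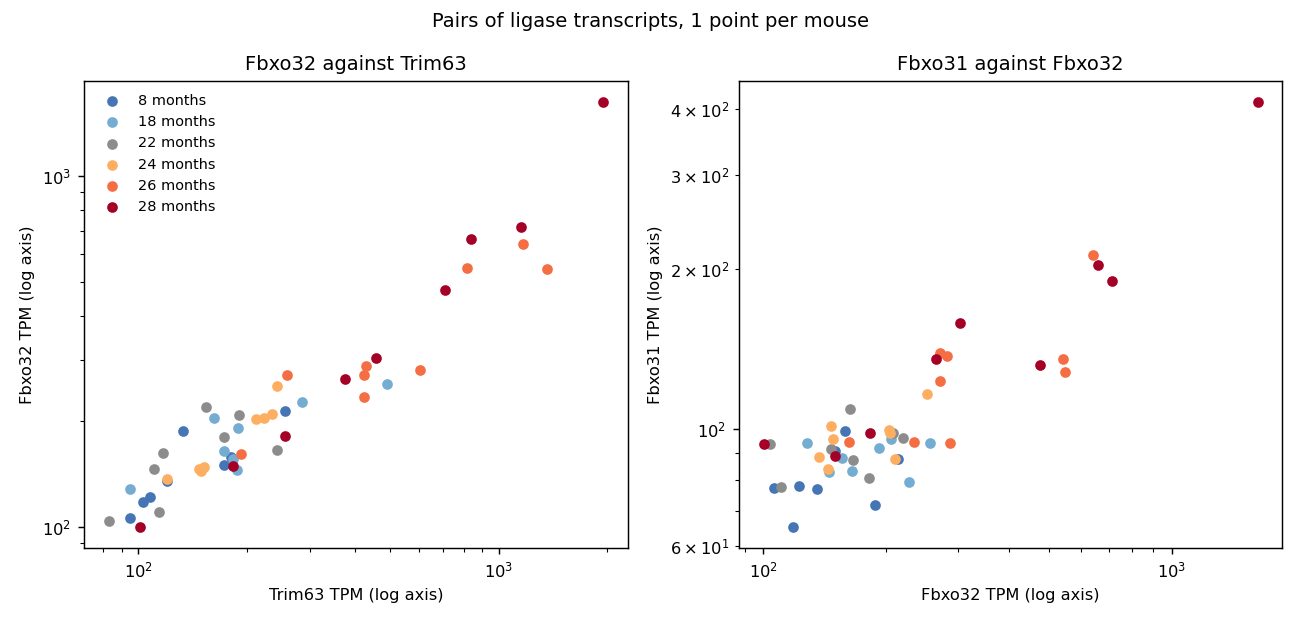
TPM of Fbxo32 against Trim63 (left) and of Fbxo31 against Fbxo32 (right) in the 50 mice, both axes on a log scale, colored by age. The 5 points with the highest Trim63 are mice of 26 and 28 months, and the relation of Fbxo32 to Trim63 continues into the younger ages.

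**Figure D5:**
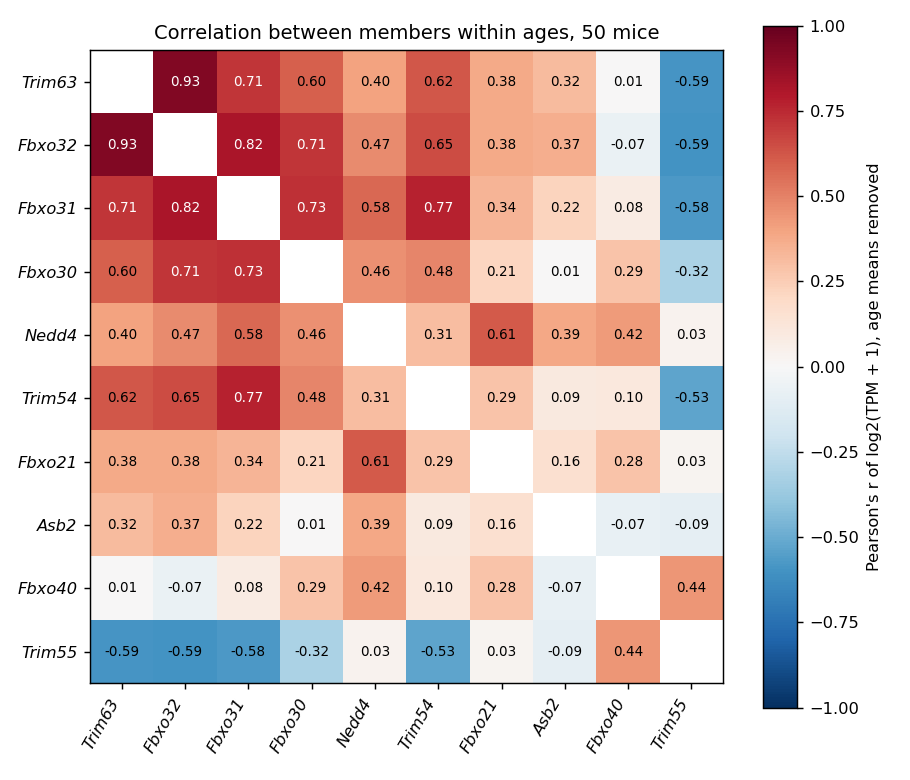
Pearson's r between the 10 genes over 50 mice after the mean of each age was subtracted from log2(TPM + 1). Trim63, Fbxo32, Fbxo31 and Fbxo30 form a block of positive values (0.60 to 0.93). Without replicate 2 of 28 months the values of Fbxo30 in this block were 0.483 to 0.563. Trim55 is negative with each gene of the block, but its pair with Fbxo30 (-0.32) did not pass (permutation test, adjusted p = 0.194). That pair was -0.155 without the same mouse and -0.644 on the CPM scale.

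The genes whose levels followed 4 of the ligases most closely over all 50 mice, age differences included, were looked up among 9187 genes. For Trim63 these were Klhl38 (r = 0.951), Fbxo32 (0.948) and Sorbs3 (0.937), and for Fbxo32 they were Trim63, Klhl38 (0.938) and Tsr1 (0.919). These values share libraries and age groups and are descriptions only. Klhl38 encodes a kelch-like protein and lies on chromosome 15 from 58314573 to 58324169 (-), 99640 bases from Fbxo32. Its level rose from 48.7 ± 10.5 TPM at 8 months (SD, n = 8) to 164 ± 94.5 at 28 months (SD, n = 9), a log2 fold change of 1.68 (standard error 0.27, edgeR's quasi-likelihood test, FDR = 2.91e-06). For Fbxo40 the nearest genes were Diaph1 (0.759), Zfp770 (0.749) and Trak2 (0.742), none of which passed between 28 and 8 months. No gene came above 0.498 for Asb2, reached by Phka1, with Slc16a9 (0.493) and Zhx2 (0.487) next.

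Between 28 and 8 months, counts in the lists below stand beside 21% of all genes higher and 18.7% lower, or 17.8% and 16.7% without replicate 2 of 28 months. The lists were chosen with earlier results of these data known, so that the counts are descriptions. Of 6 ubiquitin and E1 genes, 2 rose, none fell and 4 did not pass (median log2 fold change 0.12). The ubiquitin gene Ubb rose by 0.59 (standard error 0.12, FDR = 0.000119), from 1261 ± 89.6 to 2023 ± 709 TPM, and Uba1, the main E1 gene, by 0.19 (edgeR's quasi-likelihood test, FDR = 0.000702). Uba1 did not pass in a fit on the 2 ages alone (edgeR's quasi-likelihood test, FDR = 0.0174). Of 31 E2 genes, 4 rose (3 without replicate 2), 7 fell and 20 did not pass (median -0.09). The shares were 12.9% higher and 22.6% lower, beside 21% and 18.7% of all genes. Among the E2 genes with a mean of 5 CPM or more, Ube2j1 (0.54) and Ube2o (0.46) had the largest rises. Ube2r2 (-0.60) and Cdc34 (-0.52), the E2 enzymes that work with cullin ligases, had the largest decreases. Ube2r2 went from 188 ± 8.19 to 128 ± 20 TPM and Cdc34 from 598 ± 63.5 to 433 ± 51.3. Among 17 cullin scaffold genes, 6 rose, 3 fell (2 without replicate 2) and 8 did not pass (median 0.02, and -0.03 without replicate 2). Cul4b (0.48) and its adaptor Ddb1 (0.39) were higher, and Rnf7 (-0.41), the RING subunit of cullin-5 ligases, and Cand2 (-0.39) were lower. Cand2 did not pass in limma on either TPM scale (-0.34, FDR = 0.0155 and 0.0166) or in a fit on the 2 ages alone (edgeR's quasi-likelihood test, FDR = 0.0147).

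Of 23 other ligases studied in muscle wasting, 10 rose, 2 fell and 11 did not pass (median 0.18). Cblb, a ligase that acts on Irs1, rose by 1.08 (standard error 0.21, FDR = 5.73e-05) and Siah1a by 1.05 (standard error 0.18, edgeR's quasi-likelihood test, FDR = 6.55e-06). Trim32, which acts on desmin and thin filaments, and Stub1, a chaperone-linked ligase, both fell by 0.44. In the ASB family to which Asb2 belongs, 2 of 15 rose, 4 fell (3 without replicate 2 of 28 months) and 9 did not pass (median -0.04). Asb11 went from 177 ± 28.5 to 380.1 ± 173 TPM (2.01-fold) and Asb16 from 55.7 ± 3.21 to 73.5 ± 7.03 (1.25-fold). Asb10 (-0.82) and Asb18 (-0.53) were lower, the latter with an FDR of 0.00854 in edgeR's quasi-likelihood test and no call in 13 of the 17 fits that left out 1 mouse and in 4 of 9 other analyses. Of 20 deubiquitinases, which remove ubiquitin, 8 rose (6 without replicate 2 of 28 months), 1 fell and 11 did not pass (median 0.22), with Cyld (0.51) and Usp28 (0.48) higher and Uchl3 (-0.36) lower. Uchl3 was at -0.26 without replicate 3 of 8 months and did not pass (FDR = 0.0113).

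Among 24 transcription regulators of the ligases, 11 rose (10 without replicate 2 of 28 months), 1 fell and 12 did not pass (median 0.35). Runx1 rose by a log2 fold change of 2.33 (standard error 0.27, FDR = 1.74e-08) and Foxo1 by 1.82 (standard error 0.36, edgeR's quasi-likelihood test, FDR = 6.46e-05), the latter from 9.17 ± 5.03 to 33.9 ± 20 TPM. Of 26 substrates and partners, 7 rose (6 without that mouse), 3 fell and 16 did not pass (median 0.27). The giant sarcomere protein gene Ttn (1.27) and Flnc (1.11), a filamin gene, were higher. Myl1, a fast myosin light chain and substrate of Trim63, went from 24360 ± 1507 to 14540 ± 3965 TPM (-0.80), and Ccnd1, the cyclin D1 gene, from 5.9 ± 1.96 to 3.75 ± 1.67 (-0.74). Ccnd1 did not pass without replicate 5 of 8 months (-0.62, edgeR's quasi-likelihood test, FDR = 0.0123), nor in a fit on the 2 ages alone (FDR = 0.0126) or in limma on either TPM scale (FDR = 0.0117 and 0.0112).

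Lists of 3 signals that act on these ligases were counted in the same way. They too were chosen with earlier results of these data known. Of 14 glucocorticoid response genes, 10 rose (71.4%, where 21% of all genes did), none fell and 4 did not pass (median 0.88), with Mt2 at 3.63 and Glul at 2.21. Without replicate 2 of 28 months 9 rose and Mt2 was at 2.57 (edgeR's quasi-likelihood test, FDR = 2.04e-05). Of 14 denervation response genes, 11 rose (78.6%), with and without that mouse, none fell and 3 did not pass (median 1.29), with Sln, the sarcolipin gene, at 4.25 and Runx1 at 2.33. This list shares 4 genes (Runx1, Myog, Hdac4 and Dach2) with the transcription regulators, and the glucocorticoid list shares Klf15 with them and Per1 with the clock genes, so that these counts are not separate. Of 14 circadian clock genes, which share Arntl with the regulators, 4 rose (28.6%), 2 fell (14.3%) and 8 did not pass (median 0.25), shares near those of all genes. Cry2 (1.76) and Nfil3 (1.38) were higher, and Hlf and Nr1d1 (both -0.72) were lower. Nfil3 was at 0.73 without replicate 1 of 28 months and then did not pass (FDR = 0.0731), nor did it without replicate 1 (FDR = 0.0104) or 4 (FDR = 0.01) of 8 months. It also lost its call in 4 of 9 other analyses, with FDR values of 0.0228 to 0.0359. The summed TPM of the glucocorticoid genes had a median of 1800 at 8 months (1358 to 3129) and 4829 at 28 months (1329 to 12189, or up to 8275 without replicate 2). That of the denervation genes went from 259 (196 to 320.4) to 553 (455 to 1033). The latter groups did not overlap, whereas the former did. How often sums of other genes separate these ages is not given here, and 39.6% of all genes were called between them. A sum of TPM mostly follows its most abundant genes.

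Markers of other cells moved as well between 28 and 8 months. Of 8 macrophage markers 4 rose, or 2 without replicate 2 of 28 months, and their summed level ranged from 72.2 to 126 TPM at 8 months and from 113 to 279 at 28 months (to 204 without that mouse). Of 6 fibroblast markers 4 fell (median -1.44, sums of 725 to 1072 and 597 to 815 TPM), and 3 of 6 adipocyte markers fell (median -1.10, sums of 418 to 698 and 306 to 704 TPM, the latter 306 to 471 without that mouse). The 7 slow fibre markers gave no call, 2 of 6 fast IIB markers rose and 1 fell, and 2 of 8 skeletal fibre markers rose, with sums of 131435 to 158949 TPM at 8 months and 109969 to 177609 at 28 months (from 141732 without that mouse). In satellite cells 1 of 4 rose and 1 fell, 1 of 5 erythroid markers rose, and 1 fell in each of the lists for Schwann cells (7) and endothelial cells (6). The 1 tested heart marker, Myh6, did not pass. The part of these cells in the ligase levels was not tested.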

How the data were processed

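Gastrocnemius RNA of 50 mice was read as stranded, paired-end mRNA libraries. The authors trimmed the reads with Cutadapt 1.9.1, dropped those under 30 bases and assigned them with kallisto 0.43.1 to protein-coding transcripts of Ensembl release 92 (GRCm38), dividing a read evenly among matching transcripts. The authors deposited estimated counts summed per gene, as whole numbers, and TPM values summed over transcripts.

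The counts were tested with edgeR 4.0.16 (TMM factors, quasi-likelihood, 1 fit over 6 ages, genes kept with 1 CPM or more in 8 or more mice, Benjamini-Hochberg over 12586 genes, FDR below 0.01). The genes named in each list were the 2 largest increases and 2 largest decreases past that FDR whose mean reached 5 CPM, and the 3 most similar genes were named for Trim63, Fbxo32, Fbxo40 and Asb2. Correlations used log2(TPM + 1) and 100000 permutations. Alternatives were DESeq2 1.42.0, limma 3.58.1, other scalings, no filter, a fit on 2 ages, a block for the replicate number and fits that left out 1 mouse each. Among these, the levels, spread and list counts without replicate 2 of 28 months were added after seeing the data. The genes and lists were chosen with earlier results of these data known, and list counts are descriptions. Groups came from the sample labels. The procedure was tested on simulated data.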

Additional observations from a re-analysis of the deposited data

Results flagged for a closer look

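Within each age, the highest and lowest mouse of each of the 10 genes was compared with its nearest neighbour by Dixon's test. A mouse stood apart from the rest in 7 of 60 groups, where chance gives about 1 in 20 for normally distributed values. The test used TPM without a log, and the 10 genes were measured in the same mice, so that the groups are not independent. Replicate 2 of 28 months was the mouse apart 4 times. It reached 1624 TPM of Fbxo32 (next mouse 714), 59.5 TPM of Fbxo30 (next 22), 412 TPM of Fbxo31 (next 203) and 622 TPM of Trim54 (next 458). At 26 months replicate 1 stood at 212 TPM of Fbxo31, with the next mouse at 139. At 24 months replicate 2 stood at 13.2 TPM of Fbxo30 (next 10.8), and replicate 8 was low in Trim55 at 56.4 TPM, with the next mouse at 65.9.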

How the results depend on the processing

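Counts of ligase genes past the threshold stayed within 1.5 times the main count in 262 of 264 repeats. DESeq2 called 1 gene (Trim63) between 26 and 24 months, where 0 passed in the main test, and a fit restricted to the mice of 28 and 22 months called 2 genes in place of 6. Fbxo32, Fbxo30, Fbxo31 and Trim55 were lost there, with FDR values of 0.0106, 0.0285, 0.0102 and 0.0302, and that fit has fewer mice. With 1 mouse left out, the count was 6 to 8 between 28 and 8 months (8 without replicate 3 of 28 months), 3 to 4 between 26 and 8 months and 6 between 28 and 22 months. Single fold changes that changed sign were within their errors of 0. Fbxo40 between 26 and 8 months (0.01) was -0.03 with upper-quartile factors and -0.04 to 0.04 without single mice, and Trim54 between 28 and 22 months (0.05) was -0.02 with upper-quartile factors. Over all repeats of single values, 1612 stayed on their side of the threshold, 46 lost a call and 8 gained one. Among the lost calls were Fbxo30 between 28 and 8 months in a fit on these 2 ages (FDR = 0.0222, edgeR's quasi-likelihood test), and Fbxo30 and Trim55 between 28 and 22 months in limma on log2(TPM + 1) (FDR = 0.0106 and 0.0104). The causes were not tested.

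Nothing in the labels says that the replicate numbers pair mice. Same-numbered mice of different ages had a median correlation of 0.0608 (-0.584 to 0.406), and different-numbered mice of different ages one of -0.0072 (-0.6 to 0.612). With a replicate block, 6 ligase genes passed between 28 and 8 months, and Nfil3 did not (1.09, FDR = 0.0228). It changed no other call reported. The smallest change called among the ligases was -0.34, and with 8 or 9 mice per age, smaller changes that did not pass are not shown to be absent.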
